A study of Homo sapiens with 12 samples.

Results

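The enzymes described here attach a water-soluble group to a reactive or fat-soluble molecule. They are the glutathione transferases (GST genes), the UDP-glucuronosyltransferases (UGT genes) and the cytosolic sulfotransferases (SULT genes). Members were all genes whose symbol in the array's probe annotation begins with GST and a class letter (A, K, M, O, P, T or Z), UGT or SULT, followed by a digit. This gave 54 of 20045 named genes, read by 86 of 47320 probes: 21 GST, 22 UGT and 11 SULT genes. The rule used no measured value.

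RNA came from cultures of A549, a line from a lung adenocarcinoma with features of alveolar epithelium, and of BEAS-2B, a virally immortalised line from bronchial epithelium. Each line was derived from a single donor. Cells of all groups were first starved of serum overnight. In each line, 2 arrays measured cells in medium alone, 2 measured cells after a 0.25% extract of poultry dust for 1 h and 2 measured cells after the extract for 6 h, which makes 6 groups and 12 arrays of 1 chip. The labels number the arrays of a group 1 and 2, and they give no time for medium alone. A549 took positions A to F of the chip and BEAS-2B positions G to L, each with number 1 before number 2. Line, and number within a line, thus cannot be told apart from chip position. Nothing in the labels says that the numbers stand for separate cultures, so p-values measure the spread between these arrays, which may be technical. In RNA from whole cultures, fewer expressing cells and less RNA per cell cannot be told apart.

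Glutathione transferases couple glutathione to electrophiles such as lipid peroxidation products and the epoxides of combustion products. UDP-glucuronosyltransferases add glucuronic acid to phenols, steroids, bilirubin and drugs, and sulfotransferases add a sulfate group to phenols, catecholamines and sterols. The conjugates then leave the cell through ABC transporters. In the airway these reactions act on inhaled chemicals, and many of the genes are known targets of the transcription factor NRF2 or of the aryl hydrocarbon receptor.

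Between 37.5% and 41.1% of all probes were detected per array, where detection means a deposited detection p under 0.05. Levels are log2 intensities after background correction and quantile normalization, and the dimmest detected probe of an array lay between 5.18 and 5.32. All 5 epithelial markers (EPCAM, KRT8, KRT18, KRT19 and CDH1) were measured in both lines. In medium alone, EPCAM averaged 7.91 in A549 and 10.72 in BEAS-2B. KRT8 averaged 12.57 in A549 and 10.58 in BEAS-2B. Of 6 alveolar type II markers only 3 entered the tests, and of these SFTPB (5.05 in A549 and 5.32 in BEAS-2B) and SFTPD (5.24 in A549 and 5.10 in BEAS-2B) lay near the detection floor, whereas ABCA3 averaged 7.95 in A549 and 4.99 in BEAS-2B. Of the basal markers, KRT17 and TP63 did not enter the tests. KRT5 averaged 4.45 in A549, where it was not detected, and 7.58 in BEAS-2B. KRT14, also a basal marker, was not detected in A549 and was detected on 3 of 6 BEAS-2B arrays. In BEAS-2B it read 7.04, 7.29 and 6.28 on number 1 in medium alone, at 1 h and at 6 h. On number 2 it read 4.54, 4.56 and 4.90. No endothelial marker and no PTPRC, the leukocyte marker, entered the tests, while both monocyte and macrophage markers and 2 of 3 fibroblast markers did. CD14 averaged 6.92 in A549 and 8.24 in BEAS-2B (adjusted p = 0.192 in limma), and CD68 9.50 in A549 and 9.36 in BEAS-2B. The collagen gene COL1A1 averaged 5.46 in A549 and 6.73 in BEAS-2B (adjusted p = 0.00398), and COL3A1 5.04 in A549 and 4.77 in BEAS-2B.

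The first question was which conjugating enzymes each line expressed. With a gene called detected in a line when 1 of its probes was detected on at least 2 of 6 arrays, 23 of 54 members were detected in A549 and 19 in BEAS-2B. Both lines detected 15, only A549 detected 8, only BEAS-2B detected 4, and neither line detected 27. By probe, 37.2% of the member probes were detected in A549 and 32.6% in BEAS-2B, against 44.4% and 43.7% of all probes in these lines. Both lines detected 23.3% of the member probes and 38.3% of all probes. Of the GST genes 9 were detected in both lines, 3 in A549 alone and 3 in BEAS-2B alone. Of the UGT genes 3 were detected in both, 5 in A549 alone and 1 in BEAS-2B alone. Of the SULT genes 3 were detected in both lines and 8 in neither.

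The members detected in A549 alone were GSTA1, GSTA2, GSTM4, UGT1A7, UGT1A9, UGT1A10, UGT2B7 and UGT2B17. The members detected in BEAS-2B alone were GSTA3, GSTM3, GSTT2 and UGT8. Some of these calls rest on few arrays. GSTA1 was detected on 2 A549 arrays, UGT2B7 on 2 A549 arrays and 1 BEAS-2B array, and GSTM3 on 2 BEAS-2B arrays. At a detection p under 0.01 each of these 3 genes was detected on 1 array of its line. Among those detected in neither line were UGT1A1, the bilirubin-conjugating enzyme, UGT2B4, UGT2B10 and UGT2B15, which are known for high expression in liver, SULT1E1, which sulfates estrogen, SULT2A1, which sulfates dehydroepiandrosterone, and GSTT1. For GSTT2B, detection in both lines rested on different probes. The SULT2B1 probe used in the tests was detected on 6 of 6 A549 arrays and on 0 of 6 BEAS-2B arrays, and a dimmer SULT2B1 probe was detected on 3 of 6 arrays in each line.

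**Figure D1:**
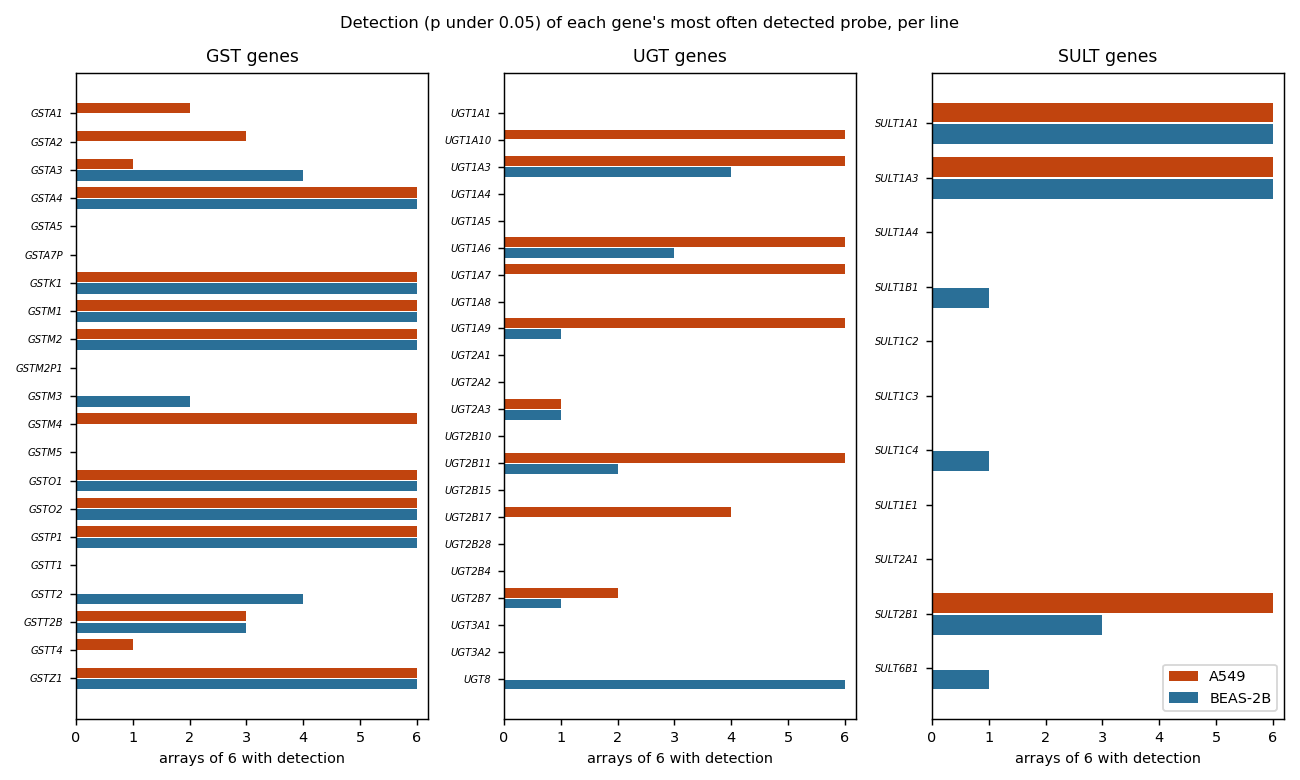
Number of arrays, of 6 per line, on which the most often detected probe of each GST, UGT or SULT gene had a detection p under 0.05; orange bars are A549 and blue bars BEAS-2B, and a gene with no bar was not detected on any array. UGT1A7 and UGT1A10 have 6 arrays in A549 and 0 in BEAS-2B, and UGT8 has 0 in A549 and 6 in BEAS-2B.

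A probe entered the tests when it was detected on at least 2 of the 12 arrays, and the brightest such probe stood for its gene. This left 28 members (15 GST, 10 UGT and 3 SULT) among 20060 features. A member that is bright in 1 line alone entered through that line, so a count over these 28 is not a count over the 54. The lines were compared as A549 minus BEAS-2B in each condition with limma, with p-values adjusted by Benjamini-Hochberg over all features. In medium alone 8 of 28 members passed an adjusted p under 0.05 (5 higher and 3 lower in A549), where 22.3% of all features passed (11.5% higher and 10.8% lower). After 1 h of dust extract 10 passed (7 higher and 3 lower), where 23.0% of all features passed (11.9% higher and 11.1% lower). After 6 h 10 passed (8 higher and 2 lower), where 21.6% of all features passed (11.0% higher and 10.6% lower). The median difference of the 28 was 0.26, 0.37 and 0.30 in medium alone, at 1 h and at 6 h, against -0.02, -0.00 and -0.02 over all features. With members undetected on both arrays of the lower line set to their lower bound, it was 0.21, 0.26 and 0.20.

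SULT2B1, UGT1A7, UGT1A10, UGT1A9 and GSTM4 were higher in A549 in all 3 conditions, and GSTO2 and UGT8 were lower in all 3. Among all features 8.04% were higher and 7.23% were lower in all 3 conditions. All 6 A549 arrays lay above all 6 BEAS-2B arrays for 8 of 28 members, against 14.6% of all features, and below them for 3, against 14.5%. The arrays of a number within a line deviated together in all 3 conditions, so these comparisons are not independent repeats.

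**Figure D2:**
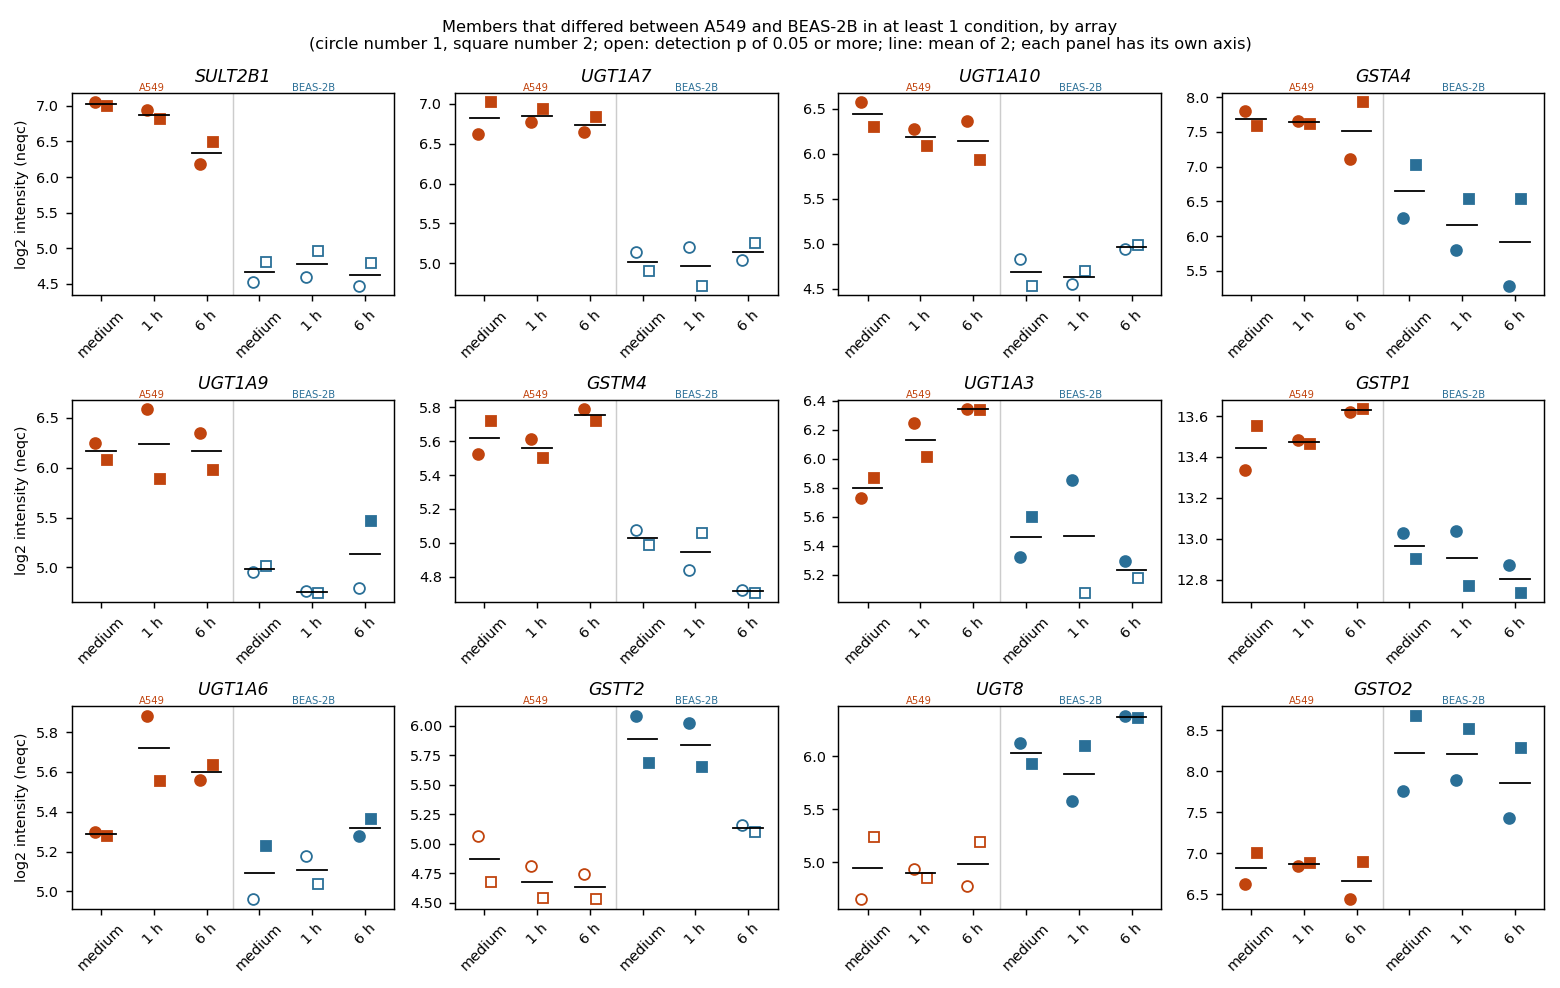
Normalized log2 intensity on each of the 12 arrays for the 12 members that differed between the lines in at least 1 condition, A549 (orange) left of BEAS-2B (blue), each in medium alone and after 1 h and 6 h of dust extract. Filled points were detected and open points were not; the SULT2B1 points lie between 6.19 and 7.06 in A549 and between 4.47 and 4.96 in BEAS-2B.

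Among the glutathione transferases, GSTP1, the pi-class enzyme known as the main glutathione transferase of lung epithelium, was detected on every array. In medium alone its level was 13.33 and 13.55 on the A549 arrays, against 13.03 and 12.90 on the BEAS-2B arrays. After 6 h of dust extract it was 13.62 and 13.64 in A549, against 12.87 and 12.74 in BEAS-2B. The A549 arrays were the higher ones in all conditions, without overlap. The difference was 0.48 (SE 0.19, adjusted p = 0.0986) in medium alone, 0.57 (SE 0.19, adjusted p = 0.0518) at 1 h and 0.82 (SE 0.19, adjusted p = 0.00998) at 6 h, and only the last passed. At 6 h the adjusted p was 0.0504 or 0.0540 without an A549 array of number 1 or 2, and 0.0602 without BEAS-2B number 2. At 1 h the call was gained with the deposited normalization (adjusted p = 0.0130), with no detection filter (0.0251) and with a stricter one (0.0384). When each array was left out in turn, the difference at 1 h ran from 0.43 to 0.70.

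GSTA4, an alpha-class enzyme that conjugates the lipid peroxidation product 4-hydroxynonenal, was detected on all 12 arrays. In medium alone it read 7.80 and 7.58 in A549, against 6.26 and 7.03 in BEAS-2B. After 1 h it read 7.65 and 7.62 in A549, against 5.79 and 6.53 in BEAS-2B, and after 6 h 7.10 and 7.93 in A549, against 5.29 and 6.54 in BEAS-2B. The lines did not overlap, and in BEAS-2B number 1 was the lower array each time. GSTA4 was higher in A549 by 1.47 at 1 h (SE 0.43, adjusted p = 0.0323) and by 1.61 at 6 h (SE 0.43, adjusted p = 0.0224), while the difference of 1.04 in medium alone had an adjusted p of 0.116. At 1 h the adjusted p was 0.125, 0.117 and 0.198 without A549 number 1, A549 number 2 or BEAS-2B number 1. At 6 h it was 0.171 without A549 number 2 and 0.181 without BEAS-2B number 1. With no detection filter it was 0.0747 at 1 h and 0.0547 at 6 h.

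GSTM4, a mu-class enzyme, was near the floor. Its level in medium alone was 5.52 and 5.72 in A549, against 5.07 and 4.99 in BEAS-2B. After 6 h it was 5.79 and 5.72 in A549, against 4.72 and 4.71 in BEAS-2B. It was detected on all 6 A549 arrays and on no BEAS-2B array, so the differences of 0.59 in medium alone (SE 0.18, adjusted p = 0.0402), 0.61 at 1 h (SE 0.18, adjusted p = 0.0342) and 1.04 at 6 h (SE 0.18, adjusted p = 0.00220) correspond to at least 1.30-fold, 1.20-fold and 1.41-fold higher levels in A549. Such a bound sets the mean of the detected arrays against the dimmest detected probe of the others. In medium alone the call held in 2 of 12 fits that each left out 1 array, both without a BEAS-2B array at 1 h. Among the other 10 the adjusted p ran from 0.0533 to 0.199. At 1 h the call was lost without any 1 of the 4 arrays compared, with adjusted p from 0.0505 to 0.178. It was kept in all 12 fits at 6 h. With the deposited normalization the adjusted p was 0.112 in medium alone and 0.0864 at 1 h.

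GSTO2, an omega-class enzyme that reduces dehydroascorbate, was lower in A549. In medium alone it read 6.63 and 7.00 in A549, against 7.76 and 8.68 in BEAS-2B. After 1 h it read 6.84 and 6.89 in A549, against 7.89 and 8.51 in BEAS-2B, and after 6 h 6.44 and 6.89 in A549, against 7.43 and 8.29 in BEAS-2B. All A549 arrays lay below all BEAS-2B arrays. The difference was -1.40 in medium alone (SE 0.37, adjusted p = 0.0190), -1.34 at 1 h (adjusted p = 0.0235) and -1.19 at 6 h (adjusted p = 0.0405). The calls depended on single arrays and on the filter. Without A549 number 1, A549 number 2 or BEAS-2B number 2 of the condition compared, the adjusted p was 0.124, 0.0511 and 0.134 in medium alone, 0.104, 0.0923 and 0.135 at 1 h, and 0.211, 0.0726 and 0.248 at 6 h. At 6 h it was also 0.0544 or 0.0590 without an A549 array in medium alone or at 1 h, and 0.0524 with the deposited normalization. With no detection filter it was 0.0518 at 1 h and 0.0829 at 6 h. GSTO1, the other omega-class gene, ran from 11.78 to 12.05 in A549 and from 11.59 to 12.05 in BEAS-2B, with differences from -0.01 to 0.09.

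GSTT2, of the theta class, is annotated by RefSeq as a transcribed pseudogene. Its probe read 5.07 and 4.68 in A549 in medium alone, where it was not detected, against 6.09 and 5.69 in BEAS-2B. After 6 h it was not detected in either line, at 4.74 and 4.53 in A549, against 5.16 and 5.10 in BEAS-2B. It was lower in A549 by at least 1.59-fold in medium alone (difference -1.01, SE 0.23, adjusted p = 0.0102) and by at least 1.56-fold at 1 h (difference -1.16, adjusted p = 0.00482). At 6 h the difference of -0.50 did not pass (adjusted p = 0.168). In medium alone the adjusted p was 0.0889 without A549 number 2 and 0.0850 without BEAS-2B number 1.

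The other 9 GST genes in the tests passed in no condition. GSTK1, the mitochondrial and peroxisomal kappa-class enzyme, ran from 9.69 to 10.50 in A549 and from 9.09 to 10.01 in BEAS-2B. GSTZ1, which acts in tyrosine breakdown, ran from 7.88 to 8.25 in A549 and from 7.50 to 8.86 in BEAS-2B. GSTM1 ran from 8.10 to 8.55 in A549 and from 7.45 to 8.80 in BEAS-2B, and GSTM2 from 6.53 to 7.74 in A549 and from 7.13 to 8.48 in BEAS-2B. These ranges overlapped between the lines. GSTA1, GSTA2, GSTA3, GSTM3 and GSTT2B had no level above 6.13 on any array.

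Probes of 1 GST gene did not always move alike. The GSTM1 probe in the tests differed by 0.20 in medium alone, and another GSTM1 probe differed by -0.88, with 4.89 and 4.95 in A549 (not detected) against 5.41 and 6.19 in BEAS-2B. The GSTT2B probe in the tests differed by 0.22, and another, not detected on any A549 array, differed by -0.64. The positions of the probes within their transcripts are not given in the sources used here. Genes of the GSTA, GSTM and GSTT2 groups are close in sequence, and cross-hybridisation between them cannot be told apart from expression.

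Many conjugating genes carry antioxidant response elements, the DNA sites of NRF2. The core letters TGACNNNGC were searched on both strands, allowing overlaps, in windows from 250 bases before to 50 bases after the start site (RefSeq, GRCh38.p14). Of the 54 members 44 matched an entry. The core was present in 10 of these 44 genes (22.7%) and in 16.1% of all 27305 genes with an entry, or 13.3% of all 35116 windows of 300 bases. Of the members higher in A549 in at least 1 condition, 8 had an entry and 3 held the core: GSTA4, GSTP1 and UGT1A6. The next 3 sequences show a promoter with the core for 2 genes that were higher in A549 and for GSTO1, which did not pass in any condition and has 2 matches. They run 5′ to 3′ on the gene's strand, with each match in capitals.
GSTP1, chr11:67583562-67583861, plus strand: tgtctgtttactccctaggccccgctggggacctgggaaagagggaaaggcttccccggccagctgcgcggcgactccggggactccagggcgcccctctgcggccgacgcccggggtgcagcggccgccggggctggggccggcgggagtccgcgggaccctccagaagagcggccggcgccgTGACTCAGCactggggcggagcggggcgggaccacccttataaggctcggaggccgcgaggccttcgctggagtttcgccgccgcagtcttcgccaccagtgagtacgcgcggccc
GSTA4, chr6:52995235-52995534, minus strand: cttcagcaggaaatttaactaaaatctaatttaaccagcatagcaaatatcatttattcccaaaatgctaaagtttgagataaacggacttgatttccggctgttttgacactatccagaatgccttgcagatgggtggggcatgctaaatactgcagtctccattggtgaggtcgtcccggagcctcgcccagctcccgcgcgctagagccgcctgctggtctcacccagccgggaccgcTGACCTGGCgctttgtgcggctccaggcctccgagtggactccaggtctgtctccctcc
GSTO1, chr10:104254642-104254941, plus strand: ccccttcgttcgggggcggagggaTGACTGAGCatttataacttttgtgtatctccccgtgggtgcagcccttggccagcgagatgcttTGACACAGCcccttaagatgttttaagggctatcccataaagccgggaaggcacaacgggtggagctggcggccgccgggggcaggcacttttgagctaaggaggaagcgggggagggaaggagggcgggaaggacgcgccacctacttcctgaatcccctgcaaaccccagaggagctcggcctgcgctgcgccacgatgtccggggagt
In GSTP1 the match TGACTCAGC begins at -66 from the start site, and in GSTA4 the match TGACCTGGC begins at -9. In GSTO1 the matches TGACTGAGC and TGACACAGC begin at -226 and -161. SULT2B1, UGT1A7, UGT1A9, UGT1A3 and GSTM4, which were also higher in A549 in at least 1 condition, have no match in this window, and neither do GSTO2 and UGT8. A match here is a run of letters and was not tested for binding.

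Among the UDP-glucuronosyltransferases, all genes that were higher in A549 lie in the UGT1A locus, where alternative first exons are joined to shared last exons, so that each first exon has its own promoter and makes an enzyme of its own. On chromosome 2 (GRCh38.p14, RefSeq) the 9 measured members begin in the order UGT1A8, UGT1A10, UGT1A9, UGT1A7, UGT1A6, UGT1A5, UGT1A4, UGT1A3 and UGT1A1, from 233617633 to 233760270, and all end at 233773300. A549 detected UGT1A10, UGT1A9, UGT1A7, UGT1A6 and UGT1A3 on 6 of 6 arrays each and UGT1A8, UGT1A5, UGT1A4 and UGT1A1 on 0 of 6. BEAS-2B detected UGT1A3 on 4 of 6 arrays, UGT1A6 on 3 and UGT1A9 on 1, and the other 6 genes on none. A probe in the shared exons would read all of these transcripts. The positions of the UGT1A probes are not given in the sources used here, so which of the transcripts each one reads was not tested.

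UGT1A7, which conjugates phenols and metabolites of polycyclic aromatic hydrocarbons and is known from the aerodigestive tract, read 6.62 and 7.02 in A549 in medium alone, against 5.14 and 4.91 in BEAS-2B. After 1 h it read 6.77 and 6.94 in A549, against 5.21 and 4.72 in BEAS-2B, and after 6 h 6.64 and 6.84 in A549, against 5.04 and 5.26 in BEAS-2B. It was detected on every A549 array and on no BEAS-2B array. The difference was 1.80 in medium alone (SE 0.23, adjusted p = 0.000321), 1.89 at 1 h (adjusted p = 0.000219) and 1.59 at 6 h (adjusted p = 0.000762), which makes A549 at least 2.98-fold, 2.95-fold and 2.80-fold higher.

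UGT1A10, an enzyme known from the gut with broad activity on phenols, read 6.58 and 6.30 in A549 in medium alone, against 4.83 and 4.53 in BEAS-2B. After 6 h it read 6.36 and 5.93 in A549, against 4.94 and 4.98 in BEAS-2B. No BEAS-2B array detected it. It was higher in A549 by 1.75 (SE 0.22, adjusted p = 0.000230, at least 2.29-fold) in medium alone, by 1.55 at 1 h (adjusted p = 0.000502, at least 1.85-fold) and by 1.18 at 6 h (adjusted p = 0.00295, at least 1.85-fold). UGT1A7 and UGT1A10 passed in all 12 fits that each left out 1 array, in all 3 conditions.

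UGT1A9, which conjugates bulky phenols such as propofol, read 6.25 and 6.08 in A549 in medium alone, against 4.95 and 5.01 in BEAS-2B. After 6 h it read 6.35 and 5.98 in A549, against 4.80 and 5.46 in BEAS-2B, and the last value is its only detection in BEAS-2B. The difference was 1.18 in medium alone (SE 0.28, adjusted p = 0.0121, at least 1.89-fold), 1.48 at 1 h (adjusted p = 0.00344, at least 1.92-fold) and 1.04 at 6 h (adjusted p = 0.0237). Without number 1 of A549 or of BEAS-2B the adjusted p was 0.0797 and 0.0600 in medium alone, and 0.150 and 0.182 at 6 h.

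The promoters of UGT1A7 and UGT1A9, which both read higher in A549, are shown to compare 2 start sites of 1 locus (RefSeq, GRCh38.p14, plus strand). Capitals mark the longest run of bases that both share, 18 bases.
UGT1A7, chr2:233681651-233681950: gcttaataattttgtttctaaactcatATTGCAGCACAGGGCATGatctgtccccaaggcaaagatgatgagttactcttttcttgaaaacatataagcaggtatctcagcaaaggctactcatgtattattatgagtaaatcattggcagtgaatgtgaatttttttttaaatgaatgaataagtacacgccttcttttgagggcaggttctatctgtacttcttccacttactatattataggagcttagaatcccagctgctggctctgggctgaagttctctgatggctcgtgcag
UGT1A9, chr2:233671648-233671947: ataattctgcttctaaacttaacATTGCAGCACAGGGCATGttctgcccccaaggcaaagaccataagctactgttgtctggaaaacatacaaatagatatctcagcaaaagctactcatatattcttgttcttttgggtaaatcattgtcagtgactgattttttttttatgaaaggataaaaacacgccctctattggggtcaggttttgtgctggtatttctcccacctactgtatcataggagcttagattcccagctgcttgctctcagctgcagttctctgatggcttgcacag
The shared run begins at -223 in UGT1A7 and at -227 in UGT1A9. It was found by comparing letters and has no function assigned here.

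UGT1A3 was detected in both lines and read 5.73 and 5.87 in A549 in medium alone, against 5.32 and 5.60 in BEAS-2B. After 6 h it read 6.34 and 6.33 in A549, against 5.29 and 5.18 in BEAS-2B. It was higher in A549 at 6 h alone, by 1.10 (SE 0.25, adjusted p = 0.0101), against 0.34 (adjusted p = 0.399) in medium alone and 0.66 (adjusted p = 0.0897) at 1 h. The test of the change in A549 against that in BEAS-2B at 6 h gave 0.77 (SE 0.36, unadjusted p = 0.0562), and its adjusted p was 1. At 6 h the adjusted p between the lines was 0.0545 or 0.0524 without an A549 array, and 0.0556 without BEAS-2B number 2.

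UGT1A6, which conjugates small planar phenols, read 5.88 and 5.56 in A549 after 1 h, against 5.18 and 5.04 in BEAS-2B, where it was not detected at that time. It was higher in A549 at 1 h by 0.61 (SE 0.20, adjusted p = 0.0442, at least 1.34-fold). This held in 2 of 12 fits that each left out 1 array, both without a BEAS-2B array in medium alone, and the adjusted p among the others ran from 0.0567 to 0.267. With the deposited normalization it was 0.113. Another UGT1A6 probe was detected on 2 arrays alone, both BEAS-2B number 2, at 5.92 in medium alone and 6.09 at 1 h.

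UGT8, which makes galactosylceramide from ceramide and so acts on a lipid of the cell itself, ran the other way. In medium alone it read 4.65 and 5.23 in A549, against 6.13 and 5.92 in BEAS-2B. After 1 h it read 4.94 and 4.85 in A549, against 5.58 and 6.09 in BEAS-2B, and after 6 h 4.77 and 5.19 in A549, against 6.38 and 6.36 in BEAS-2B. It was detected on all BEAS-2B arrays and on no A549 array, and was lower in A549 by at least 1.75-fold in medium alone (difference -1.08, SE 0.26, adjusted p = 0.0121), 1.55-fold at 1 h (-0.94, adjusted p = 0.0237) and 2.16-fold at 6 h (-1.39, adjusted p = 0.00324). In medium alone the adjusted p was 0.111 without A549 number 1 and 0.0755 without BEAS-2B number 1. At 1 h it was 0.0862, 0.114 and 0.145 without A549 number 1, A549 number 2 or BEAS-2B number 2, and 0.0572 with the deposited normalization.

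In the UGT2 group no gene passed. UGT2B17, which conjugates testosterone, read 6.12 and 5.62 in A549 in medium alone, against 4.99 and 4.83 in BEAS-2B, where it was not detected. The difference of 0.96 (SE 0.32) had an adjusted p of 0.0553 and ran from 0.71 to 1.21 when each array was left out in turn. It passed in 2 of 5 other settings, the stricter detection filter (0.0486) and the array number as a block across the lines. The other UGT2B17 probes were detected on 1, 0 and 0 of 6 A549 arrays. UGT2B11 was detected on 6 A549 arrays, between 5.43 and 5.80, and on 2 BEAS-2B arrays, where it ran from 4.80 to 5.40. Its differences of 0.48, 0.54 and 0.52 in the 3 conditions had adjusted p-values of 0.120, 0.0800 and 0.0988. UGT2B7, which conjugates morphine and steroids, had no level above 5.80, and UGT2A3 none above 5.63.

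Among the sulfotransferases, SULT2B1, which sulfates cholesterol and other sterols, had the largest fitted difference of the 28 members in each condition. By the lower bounds used where a line did not detect the probe, the order is open in each condition. In medium alone and at 1 h, UGT1A7 and UGT1A10 were known by lower bounds too. At 6 h SULT2B1 cannot be placed above UGT1A7, UGT1A10, UGT8, GSTA4, GSTO2 or UGT1A3, nor above other members known there by a lower bound. Its probe read 7.06 and 6.99 in A549 in medium alone, against 4.53 and 4.81 in BEAS-2B. After 1 h it read 6.94 and 6.81 in A549, against 4.59 and 4.96 in BEAS-2B, and after 6 h 6.19 and 6.50 in A549, against 4.47 and 4.79 in BEAS-2B. No BEAS-2B array detected this probe. The difference was 2.35 in medium alone (SE 0.22, adjusted p = 2.96e-05), 2.10 at 1 h (adjusted p = 6.69e-05) and 1.71 at 6 h (adjusted p = 0.000298), or at least 3.44-fold, 2.99-fold and 2.13-fold higher. It passed in all 12 fits that each left out 1 array. The gene's other probes were dimmer and did not all move alike: in medium alone 1 differed by 0.61 and the other by -0.36, with 4.86 and 5.28 in A549 against 5.40 and 5.44 in BEAS-2B.

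SULT1A1, the main phenol sulfotransferase, and SULT1A3, which sulfates dopamine and other catecholamines, were detected on all 12 arrays and did not pass. SULT1A1 ran from 10.44 to 11.25 in A549 and from 9.91 to 11.05 in BEAS-2B. SULT1A3 ran from 6.14 to 6.90 in A549 and from 6.17 to 6.76 in BEAS-2B. A dimmer SULT1A1 probe, detected on all arrays, differed by -0.54 in medium alone, where the probe in the tests differed by 0.46 (SE 0.47). SULT1A3 and SULT1A4 are near-identical copies, and what either probe reads of the other gene cannot be told apart.

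**Figure D3:**
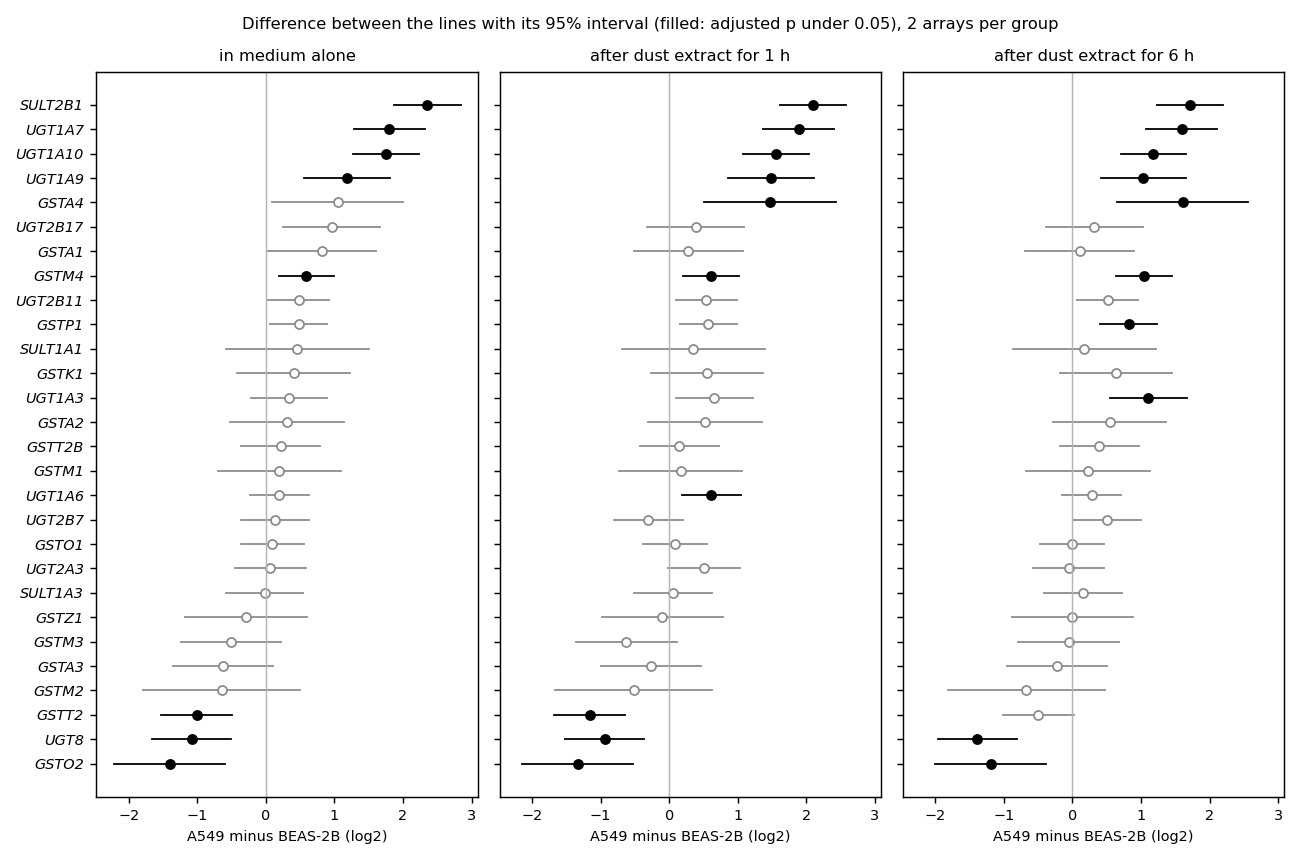
A549 minus BEAS-2B on the log2 scale for the 28 tested members in medium alone, after 1 h and after 6 h of dust extract; points are fitted differences, bars their 95% intervals from 2 arrays per group, and filled points passed an adjusted p under 0.05. SULT2B1 is highest in all 3 panels (2.35, 2.10 and 1.71), and GSTO2 and UGT8 lie below 0 in all 3.

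Conjugation needs a donor and an exit, and genes for these were read from lists of their own. For glutathione supply, 5 of 6 tested genes were higher in A549 in medium alone and 0 lower, where 11.5% of all features were higher and 10.8% lower. The list's median difference was 2.15. GCLC, the catalytic subunit of glutamate-cysteine ligase, read 9.33 and 9.67 in A549, against 7.34 and 7.25 in BEAS-2B (difference 2.20, SE 0.22, adjusted p = 4.21e-05). GCLM, its modifier subunit, differed by 2.49, and GSR, which regenerates glutathione, by 2.11. SLC7A11, the cystine importer, read 8.11 and 8.02 in A549, against 4.49 and 4.38 in BEAS-2B, where it was not detected, and was at least 7.09-fold higher. GSS, glutathione synthetase, differed by -0.41 and did not pass (adjusted p = 0.261).

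For the donor of glucuronidation, 1 of 4 tested genes was higher in medium alone, where 11.5% of all features were higher. UGDH, which makes UDP-glucuronate, read 11.88 and 11.70 in A549, against 8.24 and 8.06 in BEAS-2B (difference 3.64, SE 0.21, adjusted p = 8.14e-07). UGP2, the preceding enzyme, differed by 0.51 and did not pass (adjusted p = 0.0743). For the sulfate donor, 1 of 6 was higher in medium alone and 3 of 6 at 1 h, where 11.9% of all features were higher. PAPSS2, which makes the active sulfate PAPS, read 9.96 and 9.47 in A549, against 7.13 and 6.35 in BEAS-2B (difference 2.98, SE 0.39, adjusted p = 0.000327), while its paralog PAPSS1 differed by 0.23 (adjusted p = 0.483).

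Among the export pumps, 3 of 5 tested were higher in A549 in medium alone and 0 lower. Of all features 11.5% were higher and 10.8% lower. ABCC2, an exporter of glutathione and glucuronide conjugates, read 10.44 and 10.81 in A549, against 4.48 and 4.40 in BEAS-2B, where it was not detected, and was at least 41.7-fold higher (adjusted p = 1.28e-08). ABCC3 differed by 2.93 and ABCG2 by 1.66 (at least 1.78-fold). Of 5 tested transferases of glutathione with other names, 3 were higher, against the same 11.5% of all features. MGST1, a microsomal enzyme, read 12.82 and 12.30 in A549, against 10.38 and 10.37 in BEAS-2B (difference 2.19, adjusted p = 5.90e-05). MGST2 differed by 1.52. GSTCD, not detected in BEAS-2B in medium alone, was at least 1.43-fold higher, just past the threshold.

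Other NRF2 target genes were higher in A549 for 9 of 9 tested, in all 3 conditions, where 8.04% of all features were higher in all 3. Their median difference was 2.66 in medium alone. AKR1B10, an aldo-keto reductase, was at least 554-fold higher, and NQO1, a quinone reductase, differed by 1.97. The transcription factor gene NFE2L2 itself, which encodes NRF2, read 9.08 and 9.39 in A549, against 9.33 and 9.14 in BEAS-2B (difference -0.00, SE 0.21), and none of 4 tested regulators passed in medium alone with limma, nor at an unadjusted p under 0.05. KEAP1, the NRF2 inhibitor, differed by 0.60 at 6 h (adjusted p = 0.0466). Of 4 tested targets of the aryl hydrocarbon receptor, ALDH3A1 was higher by 7.26 and TIPARP lower by a difference of -1.40 in medium alone. The BEAS-2B arrays in medium alone lay apart for ALDH3A1, at 5.70 on number 1 and 8.02 on number 2. They also lay apart for CYP1A1, at 5.05 and 7.10. The part that these genes or their regulators play in the differences of the transferases was not tested.

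**Figure D4:**
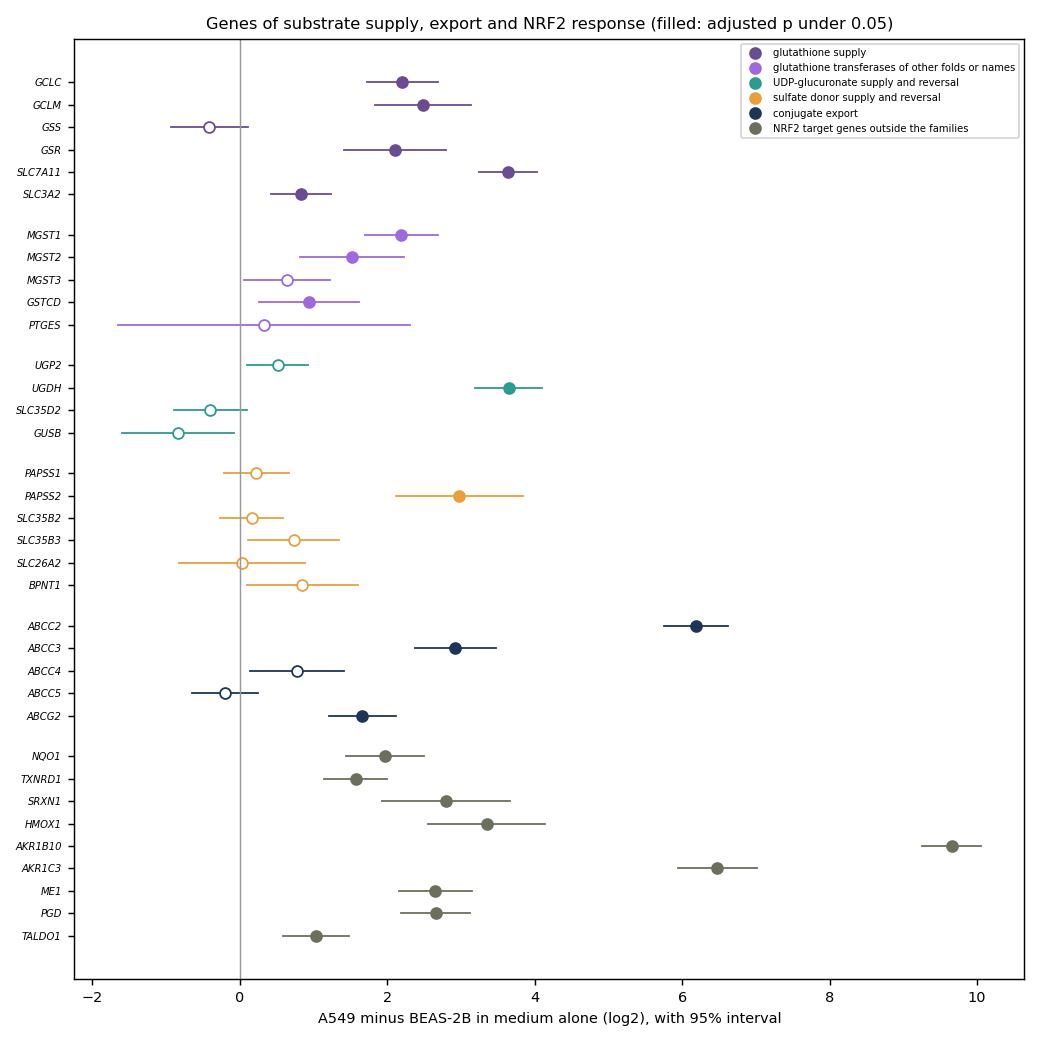
A549 minus BEAS-2B in medium alone on the log2 scale, with 95% intervals from 2 arrays per group, for the tested genes of glutathione, glucuronate and sulfate supply, conjugate export, other glutathione transferases and other NRF2 targets, coloured by list; filled points passed an adjusted p under 0.05. UGDH (3.64), PAPSS2 (2.98) and ABCC2 (6.18) stand to the right of the other genes of their lists.

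The second question was whether dust extract changed these enzymes. No member passed in any of the 4 comparisons of dust extract with medium alone, and none did with the array number as a block within each line. The percentage of all features that passed was 0.0897% in A549 at 1 h, 0.00499% in A549 at 6 h, 0.125% in BEAS-2B at 1 h and 0.0648% in BEAS-2B at 6 h, and with the block it was 0.349%, 0.279%, 0.538% and 0.568%. At an unadjusted p under 0.05 in limma the counts of members were 1, 3, 0 and 1 of 28. The share of all features at this unadjusted threshold is not given, so these counts are not read as a result about the members. Genes of the dust response did change on the same arrays. They were picked with the results of these arrays known, so their change is no independent check. FOSB was at least 62.5-fold higher in A549 at 1 h, and IL24 was higher by 3.48 in BEAS-2B at 6 h (adjusted p = 0.00166).

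In A549 at 1 h the changes of the 28 members ran from -0.62 (UGT2B17) to 0.43 (UGT1A6), with a median of -0.05. The smallest p-values were those of UGT1A6 (unadjusted p = 0.0499), UGT2B17 and UGT2A3, all with an adjusted p of 1. In A549 at 6 h the changes ran from -0.85 (UGT2B17) to 0.62 (UGT2B7), with a median of -0.07. SULT2B1 read 6.19 and 6.50 after 6 h, against 7.06 and 6.99 in medium alone. The groups did not overlap, and the change was -0.68 (SE 0.22, unadjusted p = 0.0105, adjusted p = 1.00, and adjusted p = 0.231 with the block). UGT2B7 read 5.39 and 5.80 after 6 h, against 4.87 and 5.08 in medium alone, where it was not detected, a change of 0.62 (unadjusted p = 0.0187). UGT2B17 read 5.20 and 4.83 after 6 h, against 6.12 and 5.62 in medium alone, a change of -0.85 (unadjusted p = 0.0226). Neither passed the adjustment.

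In BEAS-2B at 1 h the changes ran from -0.48 (GSTA4) to 0.31 (UGT2B7), with a median of -0.07. UGT2B11, UGT2B7 and SULT1A3 had the smallest unadjusted p-values, 0.142, 0.201 and 0.231. In BEAS-2B at 6 h the changes ran from -0.75 (GSTT2) to 0.35 (UGT8), with a median of -0.13. GSTT2 read 5.16 and 5.10 after 6 h, not detected, against 6.09 and 5.69 in medium alone. The groups did not overlap, and it was at least 1.55-fold lower in these arrays, with an unadjusted p of 0.00850, an adjusted p of 0.634 and 0.0954 with the block. GSTM4 and GSTA4 followed with unadjusted p-values of 0.112 and 0.120.

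A missed threshold does not show that a gene did not change, so the intervals are given. The 95% interval of the change lay within 1 log2 unit of 0 for 22 of 28 members in A549 at 1 h, 18 in A549 at 6 h, 20 in BEAS-2B at 1 h and 20 in BEAS-2B at 6 h. For 12 of 28 it did so in all 4 comparisons. The widest intervals were those of GSTM2, SULT1A1 and GSTA4, whose numbered arrays lay apart in BEAS-2B in all 3 conditions.

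Between 6 h and 1 h of dust extract no member passed in either line, with or without the block, where the shares of all features were 0.0349% for A549 and 0.0598% for BEAS-2B (0.234% and 0.673% with the block). At an unadjusted p under 0.05 the counts were 2 of 28 in A549 and 1 of 28 in BEAS-2B, again with no share of all features beside them. UGT2B7 in A549 changed by 0.75 (unadjusted p = 0.00719, adjusted p = 1.00) and GSTT2 in BEAS-2B by -0.70 (unadjusted p = 0.0122, adjusted p = 0.593). The change with dust extract did not differ between the lines for any member at 1 h or 6 h after adjustment. The shares of all features past the threshold were 0% and 0.00997% (0.0399% and 0.105% with the block). With an unadjusted p under 0.05 there were 0 of 28 at both times, also with no share of all features. No gene of the supply, export or NRF2 target lists passed with dust extract, with or without the block.

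**Figure D5:**
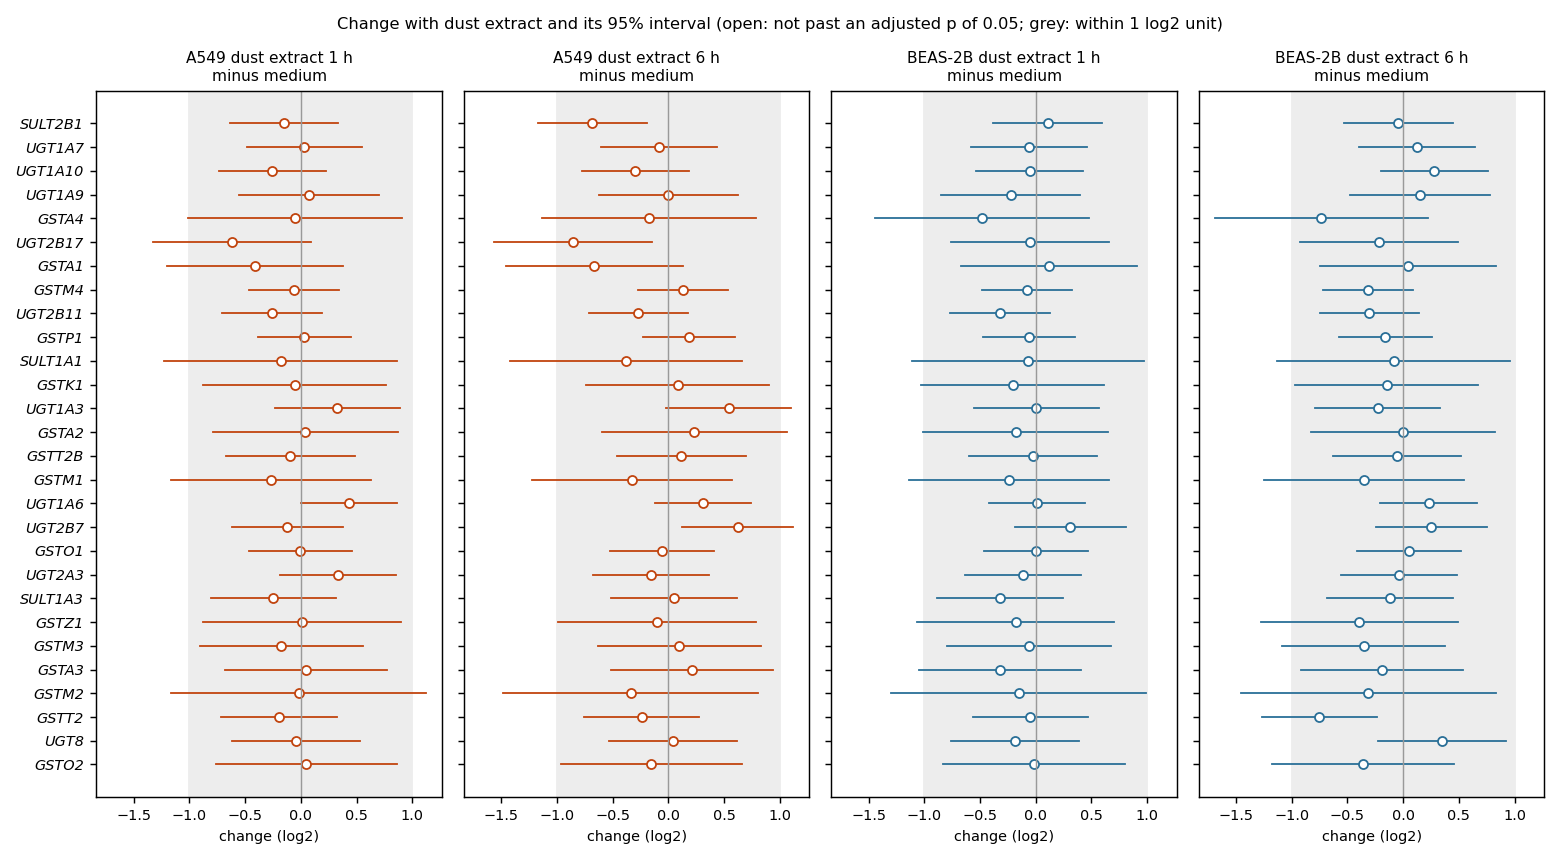
Change with dust extract against medium alone for the 28 tested members, in A549 (orange) and BEAS-2B (blue) at 1 h and 6 h, on the log2 scale with 95% intervals from 2 arrays per group; all points are open because none passed an adjusted p under 0.05, and the grey band marks 1 log2 unit either side of 0. The points run from -0.85 to 0.62.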

How the data were processed

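Bead arrays measured RNA of 2 lines in 6 groups of 2. The authors deposited probe intensities from GenomeStudio 2011.1 (per the submitters' processing notes), without background subtraction or normalization, and deposited with each intensity a detection p-value in steps of 1 in 770. A second deposited matrix holds linear intensities whose values are those of quantile normalization, and it was used as an alternative. The 24 columns of bead numbers and errors were not used. The probe alignment is not given in the sources used here.

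Intensities went through neqc (offset 16, negative controls inferred from detection p-values) in limma 3.58.1 with R 4.3.3, which gave log2 values. One mean per group was fitted to 12 arrays (6 residual and 4.71 prior degrees of freedom) and moderated by empirical Bayes. P-values were adjusted by Benjamini-Hochberg over 20060 features in each of 11 comparisons. The script was tested on simulated data. Precision is limited by the 2 arrays a group, with a median SE of 0.258 for a difference between lines.

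Arrays with the same number deviated together within A549 (r from 0.404 to 0.468) and BEAS-2B (from 0.528 to 0.645), but not between lines (from -0.051 to 0.050). So the numbers pair arrays within a line only, by correlation, since the labels state no pairing. Alternatives were the deposited matrix, 2 other detection filters, every probe as a feature, each line alone, the block and leaving out each array.

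Members and gene lists were chosen with earlier results of these data known, the dust response genes on these arrays. Named were members that passed between lines, and otherwise the 3 with the smallest p in a comparison with medium alone. List genes were named for passing, or as a partner that did not.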

Additional observations from a re-analysis of the deposited data

How the results depend on the processing

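No member changed direction with a call under any alternative. Leaving out each array in turn, with the lone array of its group assumed to vary like the other groups, moved the count of members that differed between the lines from 8 to between 4 and 9 in medium alone, from 10 to between 5 and 10 after 1 h, and from 10 to between 6 and 10 after 6 h. The lowest counts were 4 without A549 number 1 and 5 without BEAS-2B number 1 in medium alone, 5 without either A549 array and 6 without BEAS-2B number 2 at 1 h, and 6 without either A549 array at 6 h. Such a fit has fewer arrays. The deposited matrix, the other filters and every probe as a feature gave 8 or 9, between 8 and 11, and between 8 and 10. With the replicate block across lines, where the numbers showed no pairing, the counts were 11, 11 and 11. The gains were GSTA4, GSTM2 and UGT2B17 (adjusted p = 0.0130 in limma) in medium alone, GSTP1 at 1 h and GSTM2 at 6 h. For the line comparisons, the share of all features that passed under each alternative is not given. These counts therefore show sensitivity to the processing alone. The block within lines changed no call of a member with dust extract or time, and all these counts stayed at 0 under every alternative run. At a detection p under 0.01 in place of 0.05, 20 members were detected in A549 and 14 in BEAS-2B. Levels near the floor limit what can be seen: 28 of 54 members entered the tests, and several differences are lower bounds.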

Other observations

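Several members differed more between the numbered arrays of a line than with dust extract. In BEAS-2B, all 3 arrays of number 2 lay above all 3 of number 1 for 8 of 28 members (GSTA4, GSTK1, GSTM1, GSTM2, GSTO2, GSTZ1, SULT1A1 and SULT2B1), and below them for GSTA3. SULT1A1 read 11.04, 11.01 and 11.05 on number 2 in medium alone, at 1 h and at 6 h, against 10.09, 9.99 and 9.91 on number 1. GSTM2 read 8.48, 8.36 and 8.21 on number 2, against 7.48, 7.29 and 7.13 on number 1. In A549 number 2 lay above number 1 without overlap for GSTM2, GSTO1, GSTO2 and UGT1A7, and below it for GSTA1, GSTK1, GSTT2, SULT1A3 and UGT1A9. The labels do not say what the numbers stand for, and these genes were picked after their values were seen. The share of all features with such a split was not counted, so these counts mark no trait of the members. In BEAS-2B the median absolute difference between the 2 arrays of a group was 0.289, 0.447 and 0.209 for the members. Over all features it was 0.291, 0.301 and 0.281, in medium alone, at 1 h and at 6 h.

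Among other conjugating enzymes, 3 of 6 tested were higher in A549 in medium alone, where 11.5% of all features were higher. BAAT, which couples bile acids to glycine or taurine, was at least 7.04-fold higher. NNMT, which methylates nicotinamide, differed by 0.93 (SE 0.23, adjusted p = 0.0143), and HNMT, which methylates histamine and was not detected in BEAS-2B, was at least 1.83-fold higher (adjusted p = 0.0261). After 6 h of dust extract BAAT in A549 changed by -2.01 (SE 0.27), with an adjusted p of 0.0773, and 0.00578 with the replicate block within the line. TPMT differed by -0.05 between the lines in medium alone (adjusted p = 0.926).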
